A study of Mus musculus with 4 samples.

Results

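The synaptic vesicle release machinery was followed here as 38 listed genes for proteins of the vesicle membrane, the SNARE complex and its partners, the active zone and the first steps of vesicle retrieval. They were chosen by symbol from the roles of their proteins, with earlier results of these data known. They are 38 of the 32285 features counted in every section. The sections came from adult male ArcCreERT2::eYFPflx mice on a C57BL/6 background, aged 3 to 4 months. Trained mice had learned to avoid a shock zone on a rotating arena, and the untrained controls explored that arena without ever receiving a shock. All mice of both groups were given 4-hydroxytamoxifen under isoflurane before the retention test and were killed 3 days after it, so both groups carried the transgenes and both received the drug and the anaesthetic. The line carries CreERT2, a Cre that needs the drug to act, under the promoter of the activity-regulated gene Arc, so the eYFP reporter marks cells by Arc activity near the time of injection and not by cell type. There were 2 mice a condition and 1 coronal section a mouse, so the section was the replicate. A p-value between trained and untrained sections measured the spread between these 4 mice. Fits over several regions took the section as a block, so their p-values measured the scatter left over region-by-section sums, not the spread in level between mice.

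Release of transmitter depends on vesicles that are filled, held near the active zone, docked, primed and then fused with the plasma membrane when calcium enters. Fusion is driven by the SNARE proteins, is timed by synaptotagmins and complexins, and is followed by disassembly of the SNARE complex by NSF and its adaptors and by retrieval of the membrane through dynamin. Neurons differ in which paralogs of these families they use, and the choice of paralog is a known property of cell types in hippocampus, cortex and thalamus.

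Each section was measured on a Visium array, on which RNA is captured in spots that each cover a small piece of tissue with several cells or parts of cells, and counted as unique molecular identifiers (UMIs). The 4 sections held 2359 to 3055 tissue spots and 3560294 to 10330015 UMIs, with a median of 1048 to 2493 UMIs a spot. The labels name the tissue hippocampus, but the sections also covered cortex, thalamus, habenula, hypothalamus, white matter, choroid plexus and meninges. Spots were assigned to 13 regions from 91 marker genes, none of them a member of the list. In all 4 sections 88 of these markers were higher in their own region. The same markers made the calls, so this is not an independent check of the regions. Levels are given as CPM, the UMIs of a gene scaled to the same total of UMIs in every region and section, and 4 values stand in the order trained 1, trained 2, untrained 1 and untrained 2. In a spot, fewer cells of a type and less RNA per cell cannot be told apart. The regions did not hold equal shares of the conditions: the striatum-like region made up 8.41, 8.05, 4.96 and 4.85% of the spots, and layer 5 cortex held 96, 164, 32 and 144 spots.

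Together the 38 genes made up 1.37, 1.34, 1.43 and 1.37% of all UMIs of the sections. By region their mean share was highest in CA3, at 1.85%, and next in layer 5 cortex at 1.68%, layer 6 cortex at 1.61% and upper-layer cortex at 1.60%. Thalamus stood at 1.48%, CA1 at 1.32%, the dentate gyrus (DG) at 1.23% and the medial habenula at 1.18%. Hypothalamus, at 1.15%, and the striatum-like region, at 1.10%, were the lowest of the 10 neuronal regions. White matter held 1.02% and the choroid plexus 0.68%, where the single transcript Ttr took 15.2, 5.19, 7.40 and 15.4% of the UMIs.

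The level of each gene in a neuronal region was set against its mean level in the other neuronal regions, and its level in any other region against all neuronal regions, in 1 edgeR quasi-likelihood fit with the section as a block. A member passed the test when its p, adjusted by Benjamini-Hochberg over the 8300 genes tested, was under 0.05. Of the 38 genes, 37 could be tested, and Syn3 was too sparse. All 37 passed in at least 1 neuronal region, where 61.8% of all genes did. Of them, 33 passed in both directions, higher in one region and lower in another, where 31.7% did. All genes here are the 8300 tested, which were not matched to the members in level. In all, 223 of 481 pairs of member and region passed, 162 of them in the neuronal regions, beside 15.8% of the pairs of all genes with all regions and 15.2% with the neuronal ones. A sign was also taken in each section from the CPM in the region against the mean CPM of the neuronal regions compared. This is not the fitted log2 difference. By it, the sign was the same in all 4 sections for 199 of the 223, in 3 sections for 21 and in fewer for 3. The members' distance between their highest and lowest neuronal region had a median of 1.54 on the log2 scale, beside 1.03 over all 8300 genes.

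**Figure D1:**
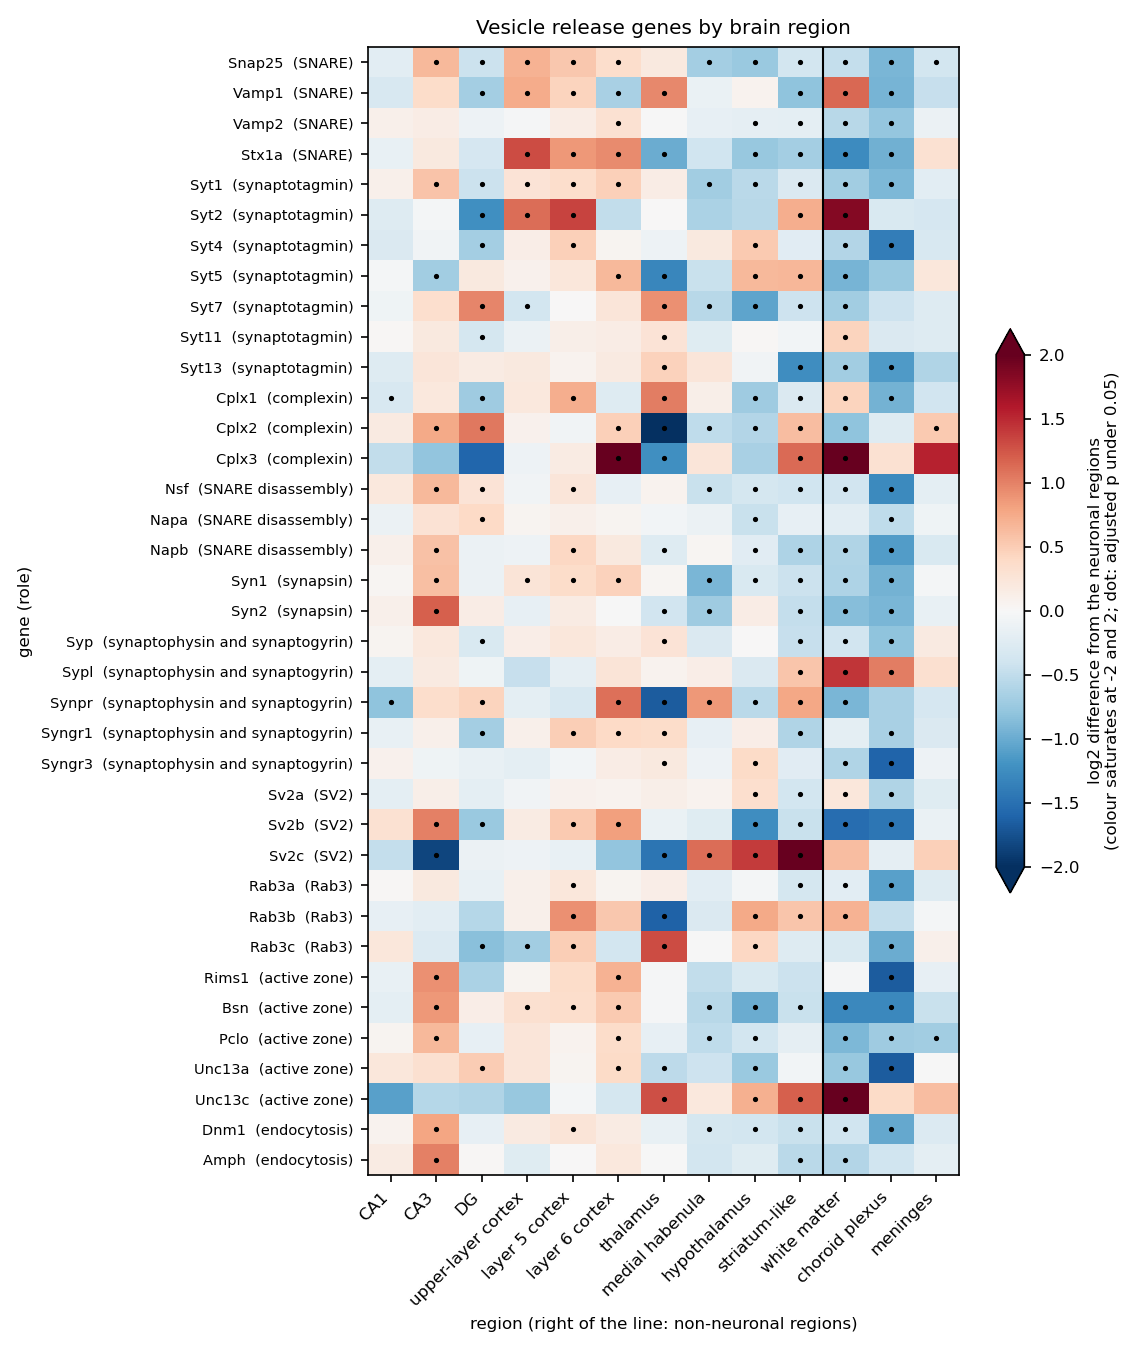
Log2 difference of each tested member (rows, grouped by role) in each region (columns) from the mean of the other neuronal regions, or of all neuronal regions for the 3 regions right of the line, in colour that saturates at -2 and 2, with a dot for an adjusted p under 0.05. CA3 and layers 5 and 6 of the cortex hold mostly higher values, the striatum-like region, hypothalamus and choroid plexus mostly lower ones, and thalamus is split, with 10 members higher and 10 lower.

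The members were most often higher in CA3 and the deep cortex. In CA3, the field that receives the mossy fibres, 13 members were higher and 2 lower, where 5.48% and 2.02% of all genes were, and the members' median difference was 0.24 against -0.02 over all genes. In layer 5 cortex 17 were higher and 0 lower, beside 4.76% and 2.18% of all genes. At an unadjusted p under 0.05, 19 of the 37 members differed in layer 5, beside 18.8% of all genes. In layer 6 cortex 15 were higher and 1 lower, beside 4.99% and 2.08%, and in upper-layer cortex 7 were higher and 2 lower, beside 6.92% and 3.3%. Leaving out untrained 2 reduced the layer 5 count from 17 to 10, and leaving out trained 2 reduced the upper-layer count from 9 to 5. Regions from single spots gave 8 in CA3 in place of 15. With no block of section layer 5 gave 9, and layer 6 gave 10 in place of 16. The share of all genes was not taken for these or later between-region counts under other settings. These falls are therefore not shown to be particular to the members.

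The other hippocampal fields had other counts, and the difference between fields was not tested. In CA1 0 members were higher and 2 lower, beside 6.24% and 1.99% of all genes, and at an unadjusted p under 0.05 there were 9 of 37, beside 18.3%. In DG, the granule cell field, 6 were higher and 11 lower, beside 8.69% and 5.13%. Thalamus, which sends glutamatergic axons to the cortex, had 10 higher and 10 lower, beside 18.6% and 17.3% of all genes. The medial habenula had 2 higher and 10 lower, beside 5.78% and 5.71%, and 6 in all when untrained 2 was left out. Hypothalamus had 8 higher and 17 lower, beside 15.2% and 14.9%, and the striatum-like region 9 higher and 20 lower, beside 11.3% and 9.07%.

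The SNARE proteins form the complex that fuses the membranes. Snap25, the plasma membrane SNARE that gives 2 of the helices of the complex, measured 4329, 4967, 3684 and 4179 CPM in upper-layer cortex and 1811, 1570.2, 2123 and 1495 in hypothalamus. All 4 cortical values lay above all 4 hypothalamic ones. Its log2 difference was 0.70 ± 0.09 in upper-layer cortex, 0.65 ± 0.09 in CA3 and -0.73 ± 0.10 in hypothalamus, with adjusted p of 1.2e-10, 1.2e-08 and 3.8e-10 in edgeR. Stx1a, syntaxin 1A, its partner in the plasma membrane, had a sharper pattern, at 288, 327, 276 and 314 CPM in upper-layer cortex against 72.5, 56.0, 75.8 and 90.2 in thalamus. The differences were 1.31 ± 0.10 (adjusted p = 7.3e-20) and -0.995 ± 0.12 (adjusted p = 1.6e-12), and layers 5 and 6 stood at 0.87 ± 0.12 and 0.94 ± 0.12. In every section each cortical layer was above thalamus for syntaxin 1A.

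The vesicle SNAREs Vamp1 and Vamp2, the synaptobrevins, differed in how far they varied. Vamp2 had the narrowest distance between neuronal regions of all tested members, 0.50 on the log2 scale, and its largest difference among them was 0.30 ± 0.07 in layer 6 cortex. Vamp1 spanned 1.77. In thalamus Vamp1 stood at 258, 271, 285 and 223 CPM and in layer 6 cortex at 106, 101, 43.7 and 101, with differences of 0.97 ± 0.09 (adjusted p = 3.5e-17) and -0.65 ± 0.15 (adjusted p = 0.0011). The thalamic values did not overlap those of layer 6. Of the UMIs of both genes, Vamp1 took 23.1 ± 1.7% in thalamus and 7.65 ± 2.6% in layer 6 cortex (mean ± SD, n = 4 sections). In upper-layer cortex Vamp1 was again high, at 208, 316, 170.2 and 195 CPM and 0.74 ± 0.11 on the log2 scale, and in the striatum-like region it was low, at -0.80 ± 0.14. The layer 6 difference did not pass without trained 2 (adjusted p = 0.093).

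NSF and the SNAP adaptors, which take the SNARE complex apart after fusion, took both directions. Nsf was higher in CA3 (0.65 ± 0.08), DG (0.28 ± 0.07) and layer 5 cortex (0.24 ± 0.07) and lower in hypothalamus (-0.36 ± 0.07), the medial habenula (-0.45 ± 0.10) and the striatum-like region (-0.40 ± 0.07). Napb, beta-SNAP, the brain form of the adaptor, was higher in CA3 (0.58 ± 0.11) and layer 5 (0.42 ± 0.09), and lower in thalamus (-0.25 ± 0.08), hypothalamus and the striatum-like region. Napa, alpha-SNAP itself, passed only in DG, at 0.40 ± 0.09, and in hypothalamus, at -0.44 ± 0.08, among the neuronal regions. All 3 genes were lower in hypothalamus.

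Complexins bind the assembled SNARE complex, hold it and help calcium-triggered fusion. The 3 complexins among the members were highest in 3 different regions. Cplx2 stood at 542, 382, 614 and 569 CPM in DG and 87.8, 46.6, 124 and 76.1 in thalamus, where every section was below every DG value. The differences were 1.06 ± 0.09 in DG (adjusted p = 1.8e-17) and -1.99 ± 0.11 in thalamus (adjusted p = 1.3e-32). Cplx1 ran the other way, at 1037, 1284, 1298 and 1191 CPM in thalamus and 429, 332, 468 and 415 in DG, with differences of 1.02 ± 0.07 (adjusted p = 1.6e-24) and -0.71 ± 0.10 (adjusted p = 3.8e-08). Of all complexin UMIs, Cplx2 took 55.8 ± 2% in DG and 6.49 ± 2.3% in thalamus. Cplx2 was also higher in CA3 (0.76 ± 0.12), the striatum-like region (0.62 ± 0.09) and layer 6 (0.47 ± 0.10), and Cplx1 was higher in layer 5 (0.73 ± 0.08). Cplx1 was also lower in CA1, at -0.32 ± 0.10. This call depended on how the region was drawn: with regions from single spots the difference was -0.038 (adjusted p = 0.915, edgeR), and it passed neither with stricter or compact regions, nor with no block of section, nor without untrained 2.

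Cplx3, the complexin known from retina and from deep cortical neurons, had the widest distance of any tested member, 4.86. It measured 73.7, 95.9, 8.75 and 30.2 CPM in layer 6 cortex against 0, 7.71, 0 and 2.53 in DG, at a difference of 3.28 ± 0.29 in layer 6 (adjusted p = 2.8e-17). The layer 6 values of both trained sections lay above those of both untrained ones. A level of 0 is a count of 0, which at this depth does not show that the gene is absent. In the striatum-like region Cplx3 stood at 10.0, 23.6, 0 and 16.8 CPM, with 1 section at 0, and the difference of 1.14 ± 0.38 no longer passed with DESeq2 (adjusted p = 0.069), with regions from single spots or without trained 2 or untrained 2. By CPM its sign was the same in only 2 of the 4 sections.

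**Figure D2:**
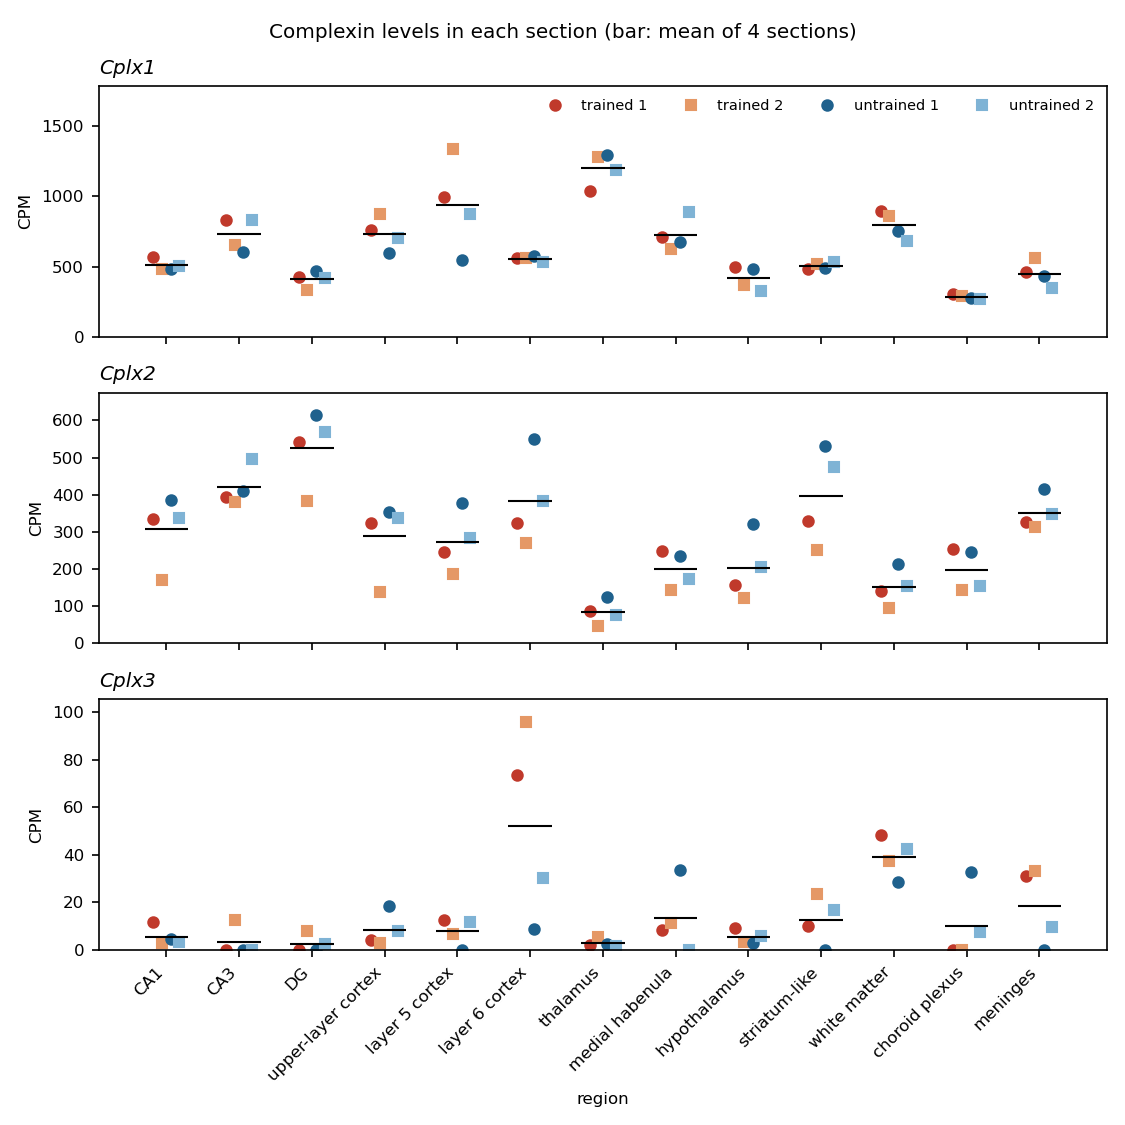
Levels of Cplx1, Cplx2 and Cplx3 in CPM (vertical axis, from 0) in each region (horizontal axis), with 1 point for each of the 4 sections (red and orange trained, dark and light blue untrained) and a bar for their mean. Cplx1 is highest in thalamus, Cplx2 in DG and Cplx3 in layer 6 cortex.

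The promoters of the 3 complexins are shown because the genes took opposite directions in DG and thalamus and Cplx3 led in layer 6. Each is the RefSeq sequence on build GRCm38.p6, 250 bases before to 50 bases after the annotated start, 5′ to 3′ on the gene's own strand. Capitals mark matches, on either strand, to the cAMP response half-site TGACG, the E-box CACGTG and the GC box GGGCGG. The Cplx1 window is chr5:108549978-108550277 on the minus strand, at the start of a gene at chr5:108518554-108550024. The Cplx2 window is chr13:54302306-54302605 on the plus strand, and its start lies 68793 bases before the GENCODE start of the gene at chr13:54371349-54383917. The Cplx3 window is chr9:57606232-57606531 on the minus strand, for the gene at chr9:57599992-57606281.
Cplx1: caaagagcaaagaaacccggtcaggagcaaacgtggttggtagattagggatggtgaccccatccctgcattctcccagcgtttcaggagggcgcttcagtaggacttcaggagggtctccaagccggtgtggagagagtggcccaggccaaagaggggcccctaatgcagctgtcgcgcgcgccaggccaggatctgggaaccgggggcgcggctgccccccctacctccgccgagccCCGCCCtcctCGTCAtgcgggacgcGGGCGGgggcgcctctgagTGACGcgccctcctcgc
Cplx2: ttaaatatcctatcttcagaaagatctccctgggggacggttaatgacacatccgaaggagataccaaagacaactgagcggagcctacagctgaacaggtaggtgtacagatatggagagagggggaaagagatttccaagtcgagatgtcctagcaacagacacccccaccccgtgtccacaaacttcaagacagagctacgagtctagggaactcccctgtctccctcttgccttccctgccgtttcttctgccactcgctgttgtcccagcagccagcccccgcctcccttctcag
Cplx3: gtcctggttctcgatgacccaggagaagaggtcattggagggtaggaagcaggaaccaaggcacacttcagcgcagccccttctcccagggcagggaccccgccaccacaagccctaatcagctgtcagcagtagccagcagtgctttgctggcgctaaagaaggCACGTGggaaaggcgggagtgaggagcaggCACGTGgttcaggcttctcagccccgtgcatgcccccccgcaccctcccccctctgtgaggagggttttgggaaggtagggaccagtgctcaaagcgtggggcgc
The Cplx1 window held 2 GC boxes and 2 half-sites, the Cplx3 window 2 E-boxes and the Cplx2 window none of the 3. The GC content was 67% for Cplx1, 53.3% for Cplx2 and 62.7% for Cplx3, and the median of all promoters was 52.7%. RefSeq promoters were found for 30 of the 38 members. GGGCGG was present in 23 of these 30 members and in 38.2% of all 27025 genes with a promoter in the table, or 35.7% of its 32851 promoters, since some genes have several. TGACG was present in 9 members and 23% of genes (20.8% of promoters), and CACGTG in 4 members and 8.09% of genes (7.15% of promoters). The full element TGACGTCA, which contains the half-site, was present in 2 members and 2.03% of genes (1.79% of promoters), and the TATA box TATAAA in 2 members and 15.7% of genes (13.6% of promoters). A match is only the presence of these letters.

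Synaptotagmins are calcium-binding proteins of the vesicle or plasma membrane, and Syt1 and Syt2 are the fast sensors for release. Syt1 was higher in CA3 (0.57 ± 0.09), layer 6 (0.48 ± 0.08), layer 5 (0.36 ± 0.08) and upper-layer cortex (0.28 ± 0.08), and lower in DG, hypothalamus, the medial habenula and the striatum-like region, where it stood at -0.28 ± 0.08. Syt2 measured 44.5, 72.7, 142 and 60.9 CPM in layer 5 cortex and 8.09, 15.4, 19.8 and 10.1 in DG. All layer 5 values lay above all DG values, and the differences were 1.35 ± 0.23 (adjusted p = 3.9e-06) and -1.23 ± 0.41 (adjusted p = 0.028). The DG difference did not pass with regions from single spots (adjusted p = 0.21), or without trained 1, trained 2 or untrained 2, at adjusted p of 0.21, 0.092 and 0.083. Upper-layer cortex was also high in Syt2, at 1.12 ± 0.24.

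Syt7, a slower and more calcium-sensitive synaptotagmin, was higher in DG and thalamus and lower in hypothalamus. It measured 385, 305, 343 and 326 CPM in DG and 89.1, 93.5, 122 and 94.2 in hypothalamus, with differences of 0.98 ± 0.10 and -1.05 ± 0.10 (adjusted p = 2.2e-15 and 2.8e-17). In thalamus it stood at 0.91 ± 0.07. In upper-layer cortex it passed at -0.36, but not with 6 of the alternatives, single-spot and stricter regions among them. Syt5 went the other way in thalamus, at 57.1, 52.6, 42.9 and 52.1 CPM and -1.31 ± 0.13, and was higher in the striatum-like region (0.67 ± 0.12), layer 6 (0.65 ± 0.13) and hypothalamus (0.65 ± 0.10). Its lower value in CA3, -0.70 ± 0.22, was not found with regions from single spots, at -0.00062 (adjusted p = 1, edgeR), and did not pass with stricter or compact regions, with no block of section or without trained 1 (adjusted p = 0.44). Syt13, an atypical synaptotagmin without calcium binding, had its lowest difference among the neuronal regions, -1.24 ± 0.14, in the striatum-like region, at 77.02, 68.6, 103 and 92.6 CPM. Syt4, a family member on dense-core vesicles, was higher in hypothalamus (0.52 ± 0.08) and layer 5 and lower in DG, and Syt11 had one of the narrowest distances, 0.63.

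Synapsins coat vesicles and hold them in the reserve pool. Syn2 measured 884, 1017, 577 and 819 CPM in CA3 and 279.6, 261, 404 and 202 in the medial habenula, and the groups of 4 values did not overlap. Its differences were 1.202 ± 0.09 (adjusted p = 4.9e-20) and -0.71 ± 0.13 (adjusted p = 1.7e-05). Among the neuronal regions Syn1 was also highest in CA3, at 0.61 ± 0.10, and lowest in the medial habenula, at 235, 155, 269 and 277 CPM and -0.92 ± 0.13. Syn3 was not tested between regions, and its whole-section level is given with the training comparison.

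SV2 proteins are vesicle membrane glycoproteins, and the 3 paralogs split by region. Sv2b measured 364, 486, 385 and 451 CPM in CA3 and 65.4, 94.8, 167 and 133 in hypothalamus, at log2 differences of 1.01 ± 0.12 and -1.25 ± 0.11, with adjusted p of 8.2e-11 and 4.3e-19. Sv2c measured 61.9, 102, 97.2 and 95.4 CPM in the striatum-like region and 0, 8.44, 12.8 and 6.45 in CA3. Every striatum-like section was above every CA3 section, and the differences were 2.43 ± 0.18 (adjusted p = 1.9e-22) and -1.84 ± 0.61 (adjusted p = 0.045), the latter not passing with DESeq2 (adjusted p = 0.11), with any other way of drawing the regions, with no block of section or without any 1 of trained 1, trained 2 and untrained 2. Sv2c was higher in hypothalamus as well, at 1.39 ± 0.18, and in the medial habenula, at 1.12 ± 0.36, where it did not pass with regions from single spots or without trained 2 or untrained 2. Of SV2 UMIs, Sv2b took 55.4 ± 7.1% in CA3 and 21.3 ± 7.4% in hypothalamus, and Sv2c 18.0 ± 3.5% in the striatum-like region against 0.923 ± 0.73% in CA3. Sv2a varied by 0.71 on the log2 scale.

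Rab3 proteins are the small GTPases of the vesicle surface. Among the neuronal regions Rab3c was highest in thalamus, at 367, 417, 321 and 400.2 CPM and 1.305 ± 0.08 (adjusted p = 5.6e-29), and lowest in DG, at 97.0, 77.1, 79.2 and 132 CPM and -0.84 ± 0.15 (adjusted p = 4.3e-06). Its share of the Rab3 UMIs was 26.7 ± 2.4% in thalamus, with a range of 23.2 to 28.6%, and 9.77 ± 1.6% in DG. Rab3b was lowest in thalamus, at 16.5, 26.8, 22.7 and 11.3 CPM and -1.62 ± 0.18. It was higher in layer 5 (0.92 ± 0.17), hypothalamus (0.76 ± 0.13) and the striatum-like region (0.55 ± 0.16). In the striatum-like region only 2 of the 4 sections had that sign by CPM. Rab3a spanned 0.59.

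Synaptophysin, synaptoporin and the synaptogyrins are 4-pass proteins of the vesicle membrane. Synpr, synaptoporin, measured 218, 331, 175 and 322 CPM in layer 6 and 58.2, 40.2, 68.2 and 49.3 in thalamus, at 1.098 ± 0.12 (adjusted p = 4.3e-12) and -1.67 ± 0.14 (adjusted p = 1.3e-19). It was also higher in the medial habenula (0.87 ± 0.17) and lower in CA1 (-0.80 ± 0.18). With regions from single spots neither of these passed, at 0.43 (adjusted p = 0.12) in the medial habenula and -0.35 (adjusted p = 0.24) in CA1. The others varied less. Syp, the classic vesicle marker, was higher in thalamus (0.28 ± 0.07) and lower in DG (-0.31 ± 0.09) and the striatum-like region (-0.46 ± 0.09). Syngr1 was higher in layer 5 (0.49 ± 0.09) and lower in DG (-0.68 ± 0.11), and Syngr3 was higher in hypothalamus (0.38 ± 0.08). Sypl, a relative that is not limited to neurons, was higher in the striatum-like region (0.55 ± 0.16).

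Among the neuronal regions the active zone genes lay highest in CA3 with 2 exceptions. Bsn and Pclo, the giant scaffolds bassoon and piccolo, stood at 0.87 ± 0.14 and 0.65 ± 0.14 in CA3, and Rims1, which binds Rab3 and calcium channels, at 0.91 ± 0.23. Bsn measured 394, 291, 192 and 329 CPM in CA3 and 91.4, 81.1, 153 and 95.7 in hypothalamus, the lowest of the neuronal regions at -0.99 ± 0.11 (adjusted p = 1.4e-13). Unc13a, which primes vesicles, was higher in DG (0.51 ± 0.13, not passing without untrained 2) and layer 6 (0.39 ± 0.13), and lower in hypothalamus (-0.75 ± 0.12) and thalamus (-0.53 ± 0.11). Unc13c, its paralog, was higher in thalamus at 30.7, 56.5, 58.1 and 57.8 CPM and 1.29 ± 0.17 (adjusted p = 1.4e-10) and in the striatum-like region at 1.195 ± 0.21. In hypothalamus it was higher by 0.72, which did not pass with regions from single spots or without untrained 2. Of UMIs of both genes, Unc13c took 36.9 ± 5.8% in thalamus and 9.08 ± 6.4% in CA1. Dnm1, neuronal dynamin, measured 1922, 1655, 1232 and 1928 CPM in CA3 and was higher there by 0.79 ± 0.08, and Amph, amphiphysin, was higher by 1.01 ± 0.14 at 412, 363, 257 and 271 CPM. Both were lower in the striatum-like region, at -0.44 ± 0.08 and -0.53 ± 0.12.

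**Figure D3:**
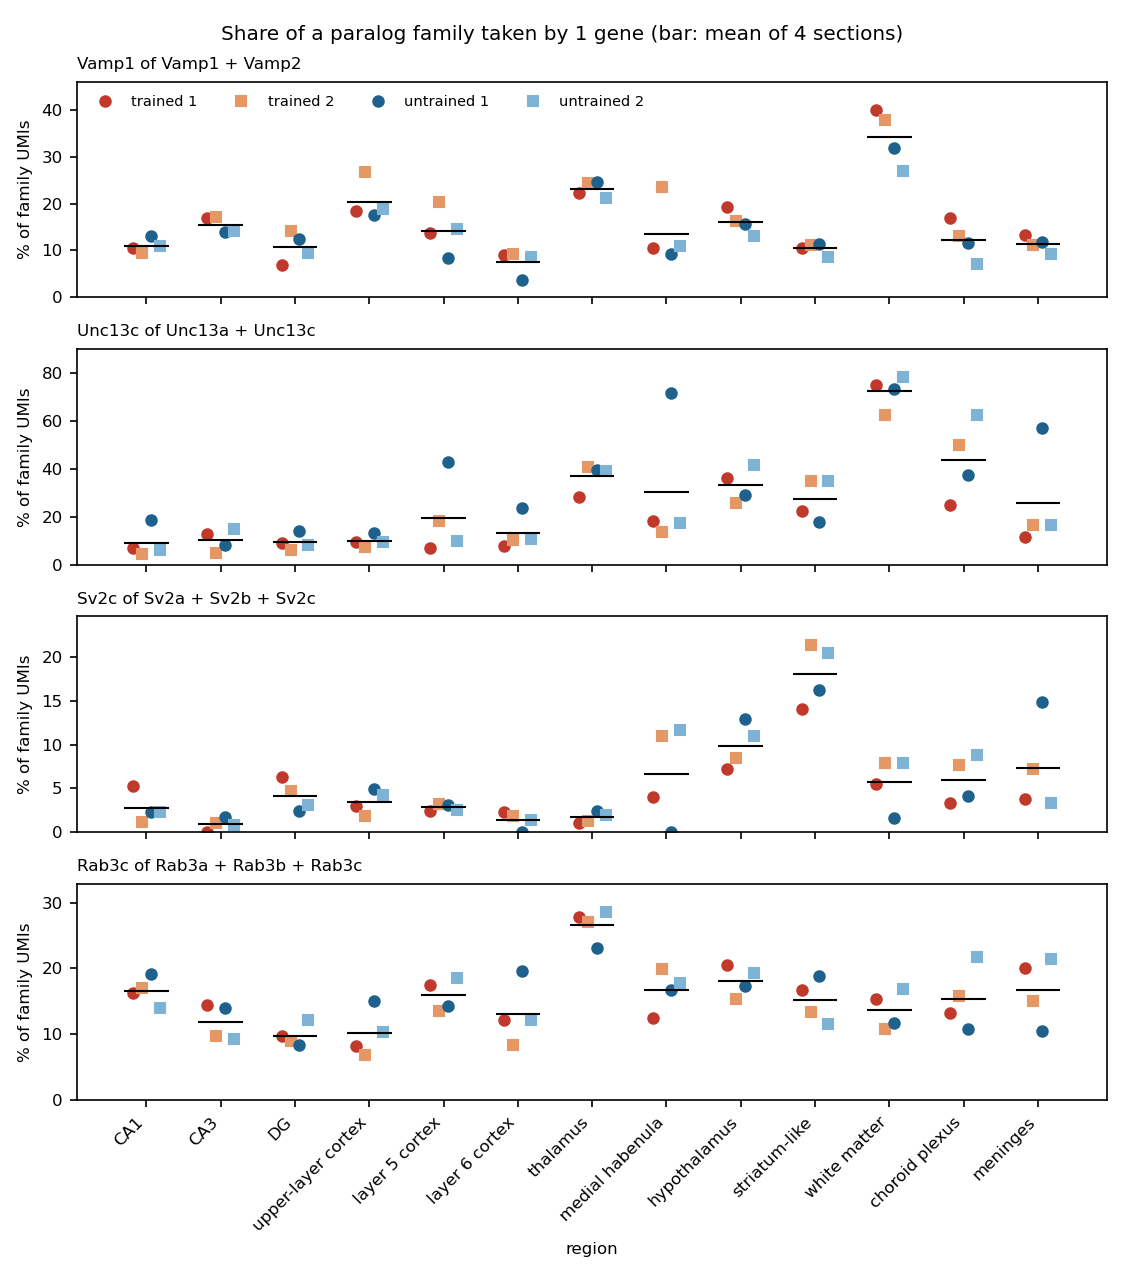
Share of Vamp1, Unc13c, Sv2c and Rab3c in the UMIs of their own family, in percent (vertical axis, from 0), by region (horizontal axis), with 1 point for each section and a bar for the mean of 4. The Vamp1 and Unc13c shares are highest in white matter, at means of 34.1 and 72.2%, that of Sv2c in the striatum-like region, at 18.0%, and that of Rab3c in thalamus, at 26.7%.

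White matter, choroid plexus and meninges were each set against all neuronal regions. In white matter 9 members were higher and 23 lower, beside 17.4% and 14.6% of all genes, in choroid plexus 1 higher and 25 lower, beside 10.3% and 6.81%, and in meninges 1 higher and 2 lower, beside 3.59% and 0.554%. Most white matter differences were negative, as for Sv2b (-1.53 ± 0.14) and Bsn (-1.29 ± 0.15). The members that were higher there were Unc13c, at 124, 135, 156 and 152 CPM and 2.71 ± 0.16 (adjusted p = 1.6e-29), Cplx3 (2.36 ± 0.31), Syt2 (1.84 ± 0.19), Sypl (1.43 ± 0.14) and Vamp1 (1.148 ± 0.11), and 4 others. Neuronal markers in the spots called white matter did not all go one way. Pan-neuronal markers took 0.448, 0.492, 0.438 and 0.369% of UMIs, a mean of 0.437% that was under that of every neuronal region, the lowest of which was DG at 0.480%. The mean share of GABA neuron markers, 0.293%, was the highest of the 13 regions, before 0.193% in hypothalamus. The GABA neuron markers stood at 0.373, 0.363, 0.227 and 0.211% of UMIs there and at 0.169, 0.165, 0.156 and 0.153% in whole sections, and Pvalb in white matter at 0.118, 0.109, 0.0611 and 0.0508%. Oligodendrocyte markers took 2.06, 2.15, 2.49 and 2.83% there. The part of these markers in the members' values was not tested.

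In the choroid plexus the member that was higher was Sypl, at 84.3, 143, 48.9 and 80.2 CPM and 1.03 ± 0.30, and it did not pass with regions from single spots, with no filter on low counts or without trained 1, trained 2 or untrained 2. The lower members included Rims1 (-1.66 ± 0.54), Unc13a (-1.66 ± 0.36) and Syngr3 (-1.61 ± 0.25). Unc13a did not pass with regions from single spots, at -0.48 (adjusted p = 0.16, edgeR). Rims1 did not pass with single spots, with DESeq2 or without trained 1, trained 2 or untrained 2, and without untrained 2 the choroid count was 17 in place of 26. In meninges Cplx2 was higher (0.52 ± 0.14) and Snap25 (-0.37 ± 0.11) and Pclo (-0.70 ± 0.21) lower. None of these 3 passed with regions from single spots, with compact regions or without untrained 2, and only 1 of them passed when any other section was left out, Cplx2 without trained 1 or untrained 1 and Snap25 without trained 2.

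Whether training altered these genes was asked first in whole sections, with the UMIs of all tissue spots summed and tested with edgeR over 13810 genes. All 38 members were tested and 0 passed, where 0.0145% of all genes did. The count of 0 depended on the settings. Without trained 1, which leaves trained 2 as the only trained section, 8 members passed, Cplx2, Bsn, Syn1, Syp, Synpr and Stx1a lower and Cplx3 and Syt2 higher, where 5.96% of all 14218 genes tested passed. Cplx2 also passed when no gene was filtered for low counts (adjusted p = 4.0e-06), where 1.05% of all genes did. An unadjusted p under 0.05 was reached by 7 of the 38 members, beside 7.96% of all genes. DESeq2 and limma voom also gave 0 members, and the share of all genes was not taken for them. Of the 38, 28 had lower and 10 higher estimates in trained sections, and their median was -0.10 (log2), beside 0.01 over all genes. Both trained sections lay above both untrained ones for 9 members, where 28.8% of all genes did so, and below them for 13, where 12.1% did. By role, the estimates were lower for 3 of 3 synapsins, 3 of 3 SV2 genes, 5 of 5 active zone genes and 2 of 2 endocytic genes, and mixed for the other groups. The log2 ratio of CPM lay a median of 0.08 above the scaled difference, and for 5 members, Snap25, Syt11, Sv2a, Rab3c and Rims1, the CPM was higher in trained sections while the scaled difference was just under 0. By CPM the counts were therefore 2 of 3 SV2 genes and 4 of 5 active zone genes lower.

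The member with the smallest p was Cplx2. It measured 259.8, 162, 386 and 302 CPM, so both trained sections lay below both untrained ones. The difference was -0.77 ± 0.22 (adjusted p = 0.54, edgeR). Sv2b measured 193, 209, 253 and 238 CPM at -0.37 ± 0.11 (adjusted p = 0.56). Bsn measured 174, 136, 195 and 206 CPM at -0.44 ± 0.15, Syn1 394, 306, 452 and 432 at -0.41 ± 0.15, and Syn3 1.69, 1.65, 2.81 and 3.04 at -0.90 ± 0.43. For these 3 the trained values did not reach the untrained ones, with adjusted p of 0.58, 0.58 and 0.63. Syt2 and Cplx3 had the largest positive estimates. Syt2 measured 36.2, 46.1, 28.1 and 28.3 CPM at 0.47 ± 0.14, and Cplx3 12.8, 20.8, 9.55 and 10.6 at 0.65 ± 0.25, with adjusted p of 0.56 and 0.59. Pvalb, a marker of the fast-spiking interneurons in which Syt2 is known to be used, took 0.025, 0.0342, 0.0156 and 0.0162% of UMIs, and oligodendrocyte markers took 0.416, 0.692, 0.455 and 0.461%. The part of either in the members' values was not tested.

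**Figure D4:**
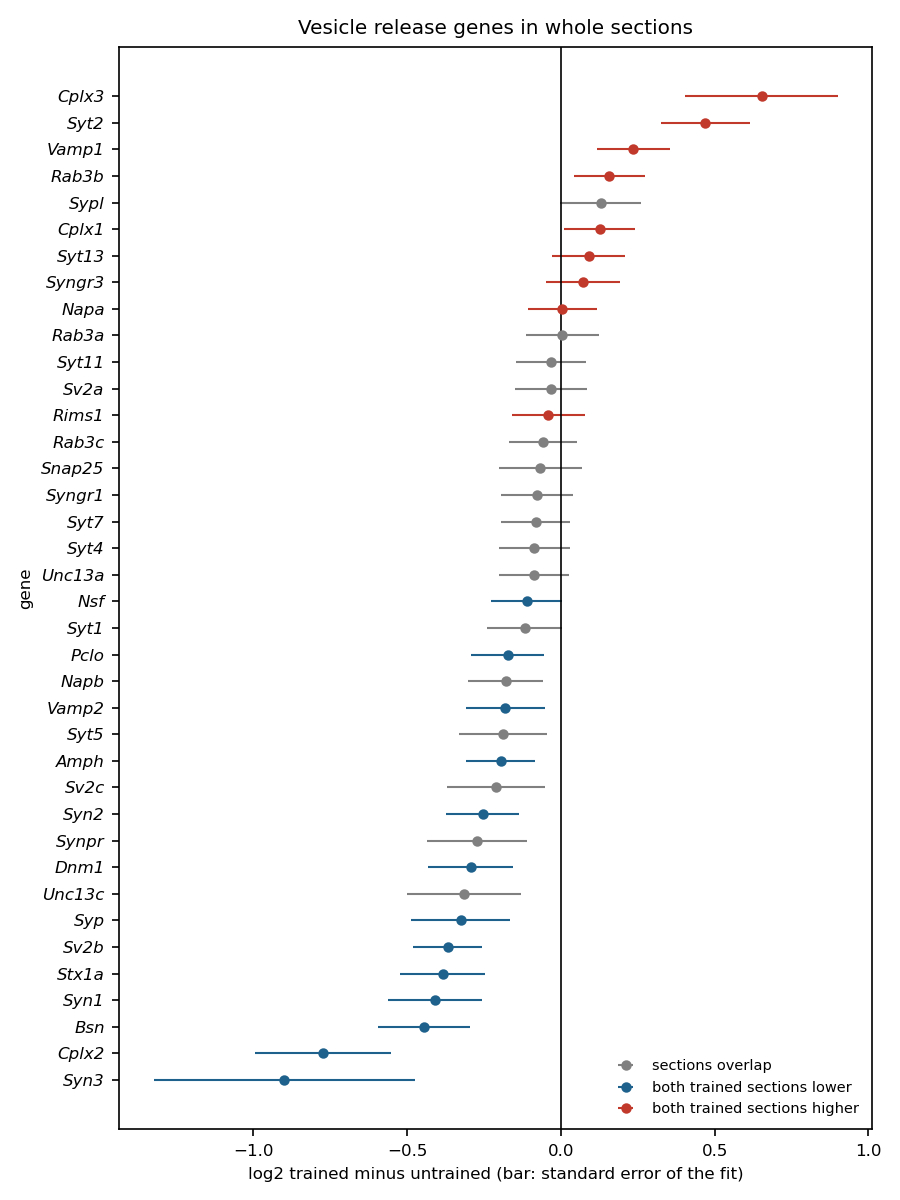
Log2 difference of each member between trained and untrained whole sections (horizontal axis) with the standard error of the fit, ordered by size and coloured by whether both trained sections lie below (blue) or above (red) both untrained ones in CPM. No adjusted p is under 0.05, 28 of 38 estimates are below 0, and Syn3 and Cplx2 have the lowest values.

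Within regions the same comparison gave 0 members in any of the 13 regions with edgeR, and 0 with DESeq2, for which the share of all genes was not taken. The share of all genes that passed was 0.0875% in CA1, 0.141% in CA3, 0% in DG, 0.0417% in upper-layer cortex, 0% in layer 5 cortex, 0.0498% in layer 6 cortex, 0.129% in thalamus, 0% in the medial habenula, 0.0532% in hypothalamus, 0.0393% in the striatum-like region, 0.104% in white matter, 0% in choroid plexus and 0.105% in meninges. At an unadjusted p under 0.05 there were 4 of 33 members in CA1 (6.45% of all genes), 2 of 31 in CA3 (5.81%), 1 of 33 in DG (4.88%), 4 of 35 in upper-layer cortex (4.94%), 3 of 35 in layer 5 (4.45%) and 4 of 34 in layer 6 (6.11%). There were 4 of 35 in thalamus (6.76%), 1 of 32 in the medial habenula (4.14%), 6 of 36 in hypothalamus (6.37%) and 6 of 36 in the striatum-like region (6.29%). In the 3 other regions there were 5 of 36 in white matter (7.77%), 1 of 18 in choroid plexus (2.19%) and 1 of 30 in meninges (5.27%).

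Across regions the estimates of Cplx2 recurred. They were lower in trained sections in 12 of 13 regions, did not overlap in 10 and had an unadjusted p under 0.05 in 8. In hypothalamus Cplx2 measured 158, 123, 321 and 206 CPM at -0.96 ± 0.22 (adjusted p = 0.25), and in the striatum-like region 328, 252, 532 and 474 at -0.82 ± 0.19 (adjusted p = 0.16). Layer 6 gave -0.68 ± 0.22, thalamus -0.67 ± 0.25 and layer 5 -0.58 ± 0.26. Syn1 and Dnm1 were lower in 12 of 13 regions each, Syp and Napb in 11 of 13 and Stx1a in 11 of 12. Others recurred higher, Napa in 11 of 13 regions, Rab3a in 9 of 13, Vamp1 in 9 of 12 and Rab3b in 8 of 10. The regions come from the same 4 sections, so these counts are not independent of each other. Without trained 1, Cplx2 passed in CA1, upper-layer cortex, thalamus and hypothalamus, where 0.387, 0.946, 0.936 and 0.815% of all genes did. Without untrained 2, Cplx2 and Sv2b passed in hypothalamus, where 0.39% of all genes did, and Sv2b passed there without trained 2 as well, beside 0.328%. With no filter on low counts both passed in hypothalamus, at adjusted p of 0.00099 and 0.017, beside 0.269% of all genes. How the regions were drawn also mattered: Cplx2 passed in the striatum-like region with compact regions (adjusted p = 0.025, edgeR), where 0.174% of all genes did, and in layer 6 with stricter ones (adjusted p = 0.026).

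In the hippocampal fields, Syp was the member with 1 of the 2 smallest p in each of CA1, CA3 and DG, at -0.57 ± 0.19, -0.49 ± 0.22 and -0.45 ± 0.23. Bsn was the other in CA1, at -0.70 ± 0.25, and Syt4 in CA3, at -0.66 ± 0.31. In DG Synpr measured 173, 108, 271 and 243 CPM at -0.79 ± 0.25, with both trained values below both untrained ones, and it passed without trained 1, as Syp and Syn1 did in DG, where 2.18% of all genes passed. That fit has trained 2 as its only trained section, in whose DG the members took a lower share of UMIs than in the other sections, at 1.32, 0.979, 1.31 and 1.3%. Markers of other cells took more of the DG of trained 2, at 0.22, 0.428, 0.253 and 0.212% for astrocytes, 0.0167, 0.0335, 0.0165 and 0.0139% for blood vessels and 0.0283, 0.0601, 0.0422 and 0.0341% for microglia. Their part in the result was not tested. In the medial habenula Synpr was 251, 128, 387 and 397 CPM at -1.06 ± 0.32 and Syn1 stood at -0.52 ± 0.31. Synpr in the medial habenula also passed without trained 1, beside 0.363% of all genes.

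In cortex, Syt2 in upper layers measured 67.4, 89.8, 13.8 and 33.8 CPM at 1.38 ± 0.39 (adjusted p = 0.69), and Pvalb took 0.0337, 0.0429, 0.017 and 0.0243% of UMIs in the same spots, higher in trained sections as well. Rab3c in upper layers stood at -0.66 ± 0.27. Bsn in layer 5 stood at -0.73 ± 0.27, and the estimate turned to 0.0579 when untrained 2 was left out, which leaves the 32 layer 5 spots of untrained 1 as the only untrained ones. Cplx3 in layer 6 stood at 1.76 ± 0.45 (adjusted p = 0.25), and it passed without trained 1 (0.817% of all genes) and under stricter region calls (0.481%). In layer 6 the fitted estimates of 8 of 8 oligodendrocyte markers were above 0, with a median of 0.72. But their share of UMIs was 0.351, 0.624, 0.367 and 0.295%, so it was high in trained 2 and lower in trained 1 than in untrained 1. Of the markers that defined layer 6, Ccn2 (192, 133, 114 and 114 CPM), Nxph4, Hs3st4 and Tle4 were higher in both trained sections. Rprm overlapped, and Osr1 (3.2, 5.64, 17.5 and 16.8 CPM) was lower in both. The part of either set in the result was not tested.

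Elsewhere, Stx1a was among the 2 smallest p in thalamus, at -0.51 ± 0.22, and in the striatum-like region, at 68.6, 57.9, 120.1 and 126 CPM and -1.03 ± 0.26. Of the markers that defined the striatum-like region, Ppp1r1b (1348, 1491, 898 and 1097 CPM), Pde10a and Rgs9 were higher in both trained sections there. The others overlapped, and the part of these markers was not tested. Sv2b was among the 2 smallest p in hypothalamus, at -0.93 ± 0.21, and in white matter, at -0.89 ± 0.28. Rab3b in white matter had the smallest adjusted p of the members named in any region, at 79.2, 124, 42.6 and 30.4 CPM and 1.62 ± 0.35 (adjusted p = 0.099), and it passed with no filter on low counts (0.156% of all genes), without trained 1 (0.746%) and without untrained 1 (0.322%). In white matter GABA neuron markers were also higher in trained sections for 5 of 6 genes tested, with a median of 0.83, and their part in the result was not tested. In choroid plexus Snap25 stood at -0.86 ± 0.33 and Syn1 at -0.78 ± 0.46. Pan-neuronal markers took 0.252, 0.264, 0.433 and 0.238% of UMIs there, the most in untrained 1. The part of these markers was not tested. In meninges Amph measured 186, 213, 75.5 and 76.4 CPM at 1.25 ± 0.37, a sign that turned when spots were called singly, and Napb stood at -0.45 ± 0.31, a sign that turned without untrained 2.

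**Figure D5:**
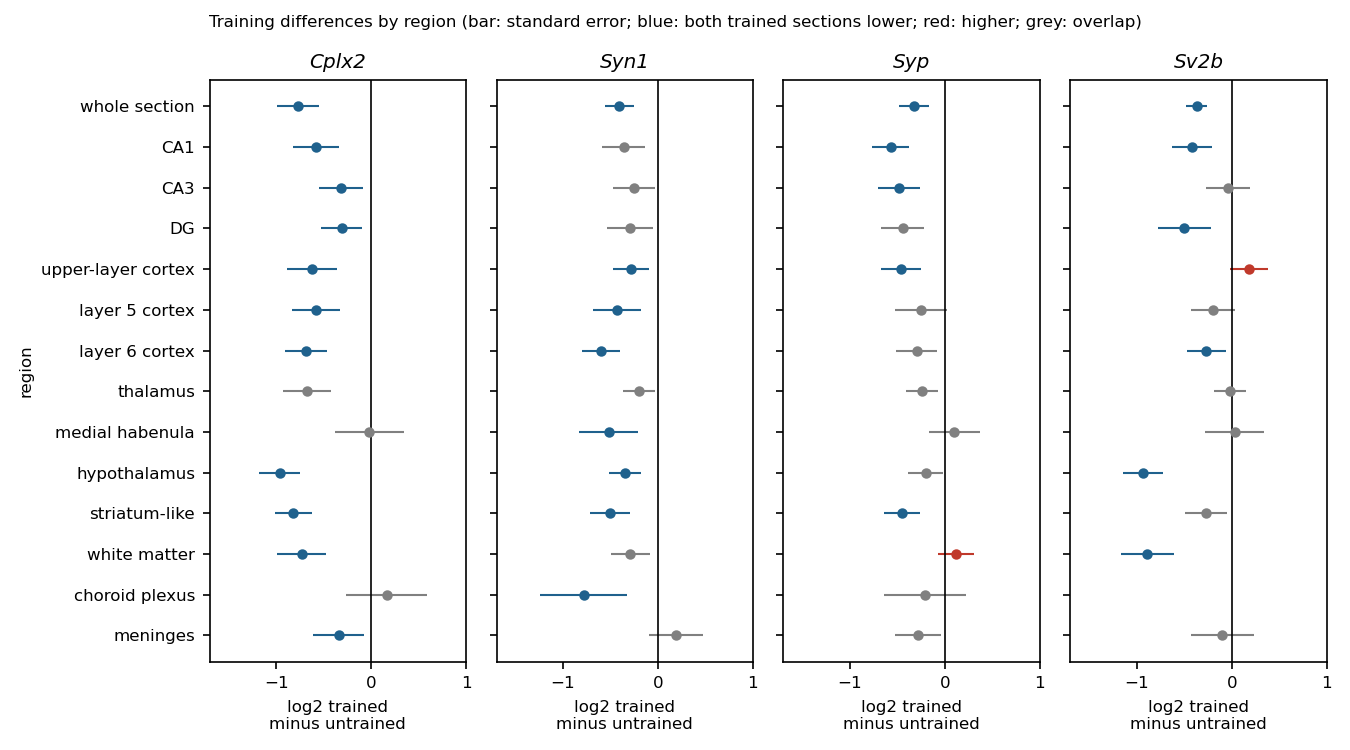
Log2 difference between trained and untrained sections (horizontal axis) with its standard error for Cplx2, Syn1, Syp and Sv2b in whole sections and in each region (vertical axis), blue where both trained sections lie below both untrained ones, red where both lie above and grey where they overlap. Cplx2 and Syn1 are below 0 in 12 of 13 regions each, Syp in 11 of 13 and Sv2b in 10 of 12.

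Whether any region's training difference departed from that of the other neuronal regions was tested with the region-by-training term over 8987 genes. 0 members passed in any of the 10 regions, and at an unadjusted p under 0.05 there were 1 to 5 of 37 members a region, where 361 to 492 of the 8987 genes reached it. The share of all genes passing was 0% in CA1, CA3, DG, upper-layer cortex, thalamus and the striatum-like region, 0.0111% in layer 5 and in layer 6 cortex, 0.0334% in the medial habenula and 0.1% in hypothalamus. The smallest p among members were those of Sv2b in hypothalamus, at -0.75 ± 0.20 (adjusted p = 0.16), and Cplx1 in layer 5, at 0.54 ± 0.17 (adjusted p = 1).

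The other genes of the vesicle cycle, 74 in lists that hold further SNARE partners, calcium sensors, active zone proteins, vesicle transporters and endocytic proteins, were described by counts. In whole sections 71 were tested, 23 estimates were higher and 48 lower in trained sections, 0 passed and the median was -0.10. Between regions 67 were tested. Read against the shares of all genes given above, in CA3 14 were higher and 2 lower (5.48% and 2.02% of all genes), in layer 5 11 and 0 (4.76% and 2.18%), in layer 6 12 and 3 (4.99% and 2.08%) and in upper-layer cortex 12 and 1 (6.92% and 3.3%). In the striatum-like region 5 were higher and 26 lower (11.3% and 9.07%), and in thalamus 23 and 17 (18.6% and 17.3%).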

How the data were processed

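Visium sections of 4 mice, 2 trained and 2 untrained by their labels, were analysed. The authors deposited UMI counts per gene and spot, whole numbers without normalization. By the study's methods, reads were trimmed with TrimGalore and counted with Space Ranger against mm10, the file headers name another Space Ranger release, and the submitters' processing notes list Cell Ranger 8, STAR and GRCm39, so the release and build cannot be settled from these sources. The gene counts were used as they stand.

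Only spots over tissue were kept, and no doublet step applies to spots. A spot's counts were summed with those of its 6 neighbours, scaled to 10000 and log-transformed, and the spot took the region whose markers had the highest mean standardized score, if that was at least 0.5 and led the next by 0.25. Counts were then summed by section and region, with at least 15 spots in every section. Tests used edgeR 4.0.16 (filterByExpr, TMM, quasi-likelihood F-test) in R 4.3.3 with Benjamini-Hochberg adjustment over all genes tested and a threshold of 0.05, with the section as a block between regions. DESeq2 1.42.0 and limma 3.58.1 (voom) served as alternatives. The scripts were tested on simulated data. Members and lists were chosen with earlier results of these data known.

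Genes named with values came from the 6 members with the largest whole-section differences among those whose groups did not overlap. They also came from the 3 highest and 3 lowest passing members of each region, and from the paralog families. For training, they came from the 2 smallest p of each comparison and of the region-by-training term. Not all passing members so chosen are given with values, as Stx1a in white matter and Sv2b in DG. Sv2b in whole sections and the other members named by region were chosen after their values were seen. Alternatives were DESeq2, voom, no filter, the block choices, single-spot, stricter and compact regions, and leaving out each section. GENCODE vM21 on mm10 gave gene positions, and RefSeq gave promoters. Summed counts per section ran from 3560294 to 10330015, so untrained 1 gives the least precise values.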

Additional observations from a re-analysis of the deposited data

How the results depend on the processing

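Same-numbered trained and untrained sections were not paired: their deviations from the group means correlated at 0.019 over 13810 genes. With the replicate block, 1 member passed in whole sections (Cplx2), 1 in layer 6 (Cplx3), 1 in hypothalamus (Cplx2) and 2 in the striatum-like region (Cplx2 and Stx1a), where 0 passed without it. Of all genes, 0.34, 0.481, 0.17 and 0.354% passed with the block in these 4 comparisons. The main training counts of 0 also moved with no filter on low counts, to 1 in whole sections, 2 in hypothalamus and 1 in white matter, with stricter regions to 2 in layer 6, and with compact regions, an alternative chosen after seeing the data, to 1 in the striatum-like region.

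Leaving out each section in turn, with a lone section assumed to vary like the other group, gave 0 to 8 members in whole sections, 0 to 3 in DG, 0 to 2 in upper-layer cortex and in hypothalamus, and 0 to 1 in CA1, layer 6, thalamus, the medial habenula and white matter. Between regions the counts ran from 1 to 3 in CA1, 5 to 9 in upper-layer cortex, 10 to 18 in layer 5, 6 to 13 in the medial habenula, 17 to 26 in choroid plexus and 1 to 2 in meninges.

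Without the block of section, the counts between regions were 1 in CA1, 5 in upper-layer cortex, 9 in layer 5, 10 in layer 6 and 1 in meninges. With regions from single spots they were 8 in CA3, 5 in upper-layer cortex, 11 in layer 5, 6 in the medial habenula, 11 in choroid plexus and 1 in meninges. Compact regions gave 4 in CA1 and 0 in meninges, and no filter gave 8 in meninges. The share of all genes was not taken for these between-region settings, so the moves are not shown to be particular to the members. The direction reversed for Bsn in layer 5 without untrained 2 (0.0579), Amph in meninges with single spots (-0.246) and Napb in meninges without untrained 2 (0.459), all training estimates that did not pass. Leaving out 1 section gave -0.898 to 0.0579 for Bsn in layer 5 and -0.714 to 0.459 for Napb in meninges. The cause of these changes was not tested. In all, 306 counts stayed within 1.5 times of the reported ones and 42 did not, and of the values for single genes 863 kept their direction and their side of the threshold, 72 lost and 28 gained the call. Of the medians over the members 128 moved by less than the spread between sections and 35 by more. With 2 mice a group, and the fewest UMIs in untrained 1, sparse members such as Cplx3, Sv2c and Syt2 in small regions have the least precise values.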
